A study of Mus musculus with 11 samples.

Results

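Microtubules are the target of paclitaxel, and the genes described here encode their building blocks, their motors and the proteins that bind them: tubulins, kinesins, cytoplasmic dyneins, stathmins and the structural microtubule-associated proteins (MAPs). Members were taken by name from the count table (tubulin, kinesin and dynein gene symbols, Stmn1 to Stmn4, Map1a, Map1b, Map2, Map4, Map6 and Mapt) with a mean of at least 10 counts per library. Such a name was carried by 72 of the 17118 genes listed, and 69 were members. Of those below the minimum, Tubb6 averaged 8.36, Kif22 3.64 and Kifc1 3.40 counts, and the lowest members were Tubb4b-ps2 with 28.8 and Kif7 with 40.2. One gene that the name pattern takes in, Kif1bp, encodes a protein that binds kinesins and is not itself a motor, and it is described apart from them. The libraries are bulk RNA of hippocampal punches from female C57/BL6J mice (C57/BL6 in the treatment protocol), treated at 12 weeks of age, with a label of 1 month. The 5 AC-T mice (numbers 501, 502, 503, 600 and 602) had 4 weekly intraperitoneal injections of doxorubicin (2 mg/kg, an anthracycline) with cyclophosphamide (50 mg/kg, an alkylating agent), followed by 4 of paclitaxel (5 mg/kg). The 6 control mice (201, 202, 203, 300, 301 and 302) had 8 injections of 0.9% saline on the same schedule. Paclitaxel was given only together with the earlier drugs, so its part in a difference cannot be told apart from theirs.

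Microtubules are hollow polymers of α- and β-tubulin dimers, and paclitaxel binds β-tubulin inside the polymer and stabilises it against disassembly. In neurons they carry long-range transport: most kinesins walk towards the plus end, which in axons points to the terminal, and cytoplasmic dynein walks to the minus end, back to the cell body. Stathmins bind free tubulin dimers, and MAPs such as tau bind along the polymer. Each tubulin is encoded by several isotype genes that differ mainly in the acidic tail at the end of the protein, where enzymes remove or add tyrosine and glutamate.

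The ends of the coding regions of 3 α-tubulin and 6 β-tubulin genes are shown because they encode the tail in which most isotypes differ. Each line gives the last 45 coding bases (15 codons) before the stop codon, 5′ to 3′ on the coding strand, from the GENCODE M21 transcripts of build GRCm38, with the last sense codon in capitals.
Tuba1c: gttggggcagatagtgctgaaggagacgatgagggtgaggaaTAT
Tuba4a: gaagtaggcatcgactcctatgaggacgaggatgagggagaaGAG
Tuba8: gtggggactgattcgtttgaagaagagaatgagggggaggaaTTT
Tubb2a: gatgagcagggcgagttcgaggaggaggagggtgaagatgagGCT
Tubb2b: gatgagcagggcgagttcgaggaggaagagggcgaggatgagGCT
Tubb3: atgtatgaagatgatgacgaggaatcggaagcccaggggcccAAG
Tubb4a: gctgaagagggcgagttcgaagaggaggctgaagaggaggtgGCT
Tubb4b: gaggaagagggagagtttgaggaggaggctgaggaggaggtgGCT
Tubb5: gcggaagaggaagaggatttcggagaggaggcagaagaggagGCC

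Tuba1c ends in a tyrosine codon, TAT, and Tuba4a ends in a glutamate codon, GAG, so that its message encodes a tail without the terminal tyrosine. Tuba8 ends in TTT, which is not a tyrosine codon either. Over the whole coding region the α-tubulin genes were 79.2% to 98.4% identical (10 pairs) and the β-tubulin genes 82.3% to 96.5% (15 pairs). The last 45 bases were compared position by position without gaps, and the longer regions by alignment with gaps, so the measures differ. Over those 45 bases, identity over the same pairs went down to 37.8% in both families. Tubb4a and Tubb4b were an exception with ends more alike (86.7%) than the rest of the coding region (83.2%). Of the 31-base words in the transcript, 77.0% of those of Tuba1a, 75.4% of Tuba1b, 63.9% of Tuba1c, 56.4% of Tubb2a, 45.9% of Tubb2b and 64.6% of Tubb4b also occurred in another gene. For Tuba4a, Tubb3, Tubb4a and Tubb5 the share was 3.77%, 3.26%, 1.87% and 4.43%. The deposited values are estimated counts in which shared reads were divided among genes, so the split between members of the first group is uncertain and their sum is given beside them.

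Depth was similar, with 23.4 M to 32.1 M counts in a saline library and 28.3 M to 31.7 M in an AC-T library (M, mega). Levels are normalised read counts scaled to a library of 1 M (CPM), and for comparison between genes CPM per kilobase of transcript. Marker lists were chosen with earlier results of these data known, so their differences are description and not independent support for differing tissue. Those of neighbouring tissue differed between the groups. Of 18 thalamic and habenular markers 15 were lower after AC-T. Over all genes 3.58% were lower and 4.89% higher. Prox1 is in this list and in that of dentate granule neurons, and 1 of the 18 was listed at 0 in some library. The summed levels of the 18 were 1618 to 2422 CPM after saline and 878 to 1258 CPM after AC-T, which do not overlap. Summed markers of CA1 pyramidal neurons (178 to 482 and 579 to 737 CPM; 1 of 10 passed) and of neocortex (4 of 12 higher, 1 lower) did not overlap either, while those of dentate granule neurons (289 to 536 CPM over all libraries), CA3 neurons (843 to 1158 CPM) and myelin did. Thalamic markers were thus present beside those of the labelled hippocampus in every library; the part of tissue makeup in the results was not tested except by thalamic and myelin marker scores as covariates. Of other lists, 3 of 12 astrocyte markers (Slc4a4, S100b and Aqp4), 1 of 12 endothelial and mural markers (Pecam1) and 1 of 4 tested markers of dividing cells and newborn neurons (Sox11) were lower, and of 12 general neuronal markers Syt1 was higher and Nefh lower; these sums overlapped between the groups. In bulk RNA fewer cells of a type and less RNA per cell cannot be told apart. Libraries also fall into series by the leading digit of their mouse number (2 and 3 saline, 5 and 6 AC-T). The meaning of this digit is not in the labels, and since each series had 1 treatment, series and treatment cannot be told apart. Each library has its own mouse number, so p-values reflect the spread between mice.

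Few members passed the test, and those that did changed by small amounts. The members took 1.93 ± 0.0457% of all counts after saline (SD, n = 6) and 2.02 ± 0.0628% after AC-T (SD, n = 5). Of 68 members tested, 6 rose and 1 fell (adjusted p under 0.05, edgeR's quasi-likelihood test with Benjamini-Hochberg adjustment over all genes tested); Kif27 was below the filter on low counts. Tuba4a, Kif3a, Kif21a, Kif1bp, Dynll1 and Mapt rose by 1.13-fold to 1.24-fold, and Kif26b fell to 0.750 times its saline value. The share of members called was 10.3%, beside 8.47% of all 15353 genes, with 4.89% higher and 3.58% lower. Most families held few genes, so a family with 0 calls is not told apart from this share. An unadjusted p under 0.05 was reached by 15 of the 68 members, beside 24.9% of all genes. The groups did not overlap for 5 members that were above saline (Tuba4a, Kif3a, Kif21a, Kif1bp and Mapt) and 2 that were below it (Kif26b and Dynlt1b), beside 7.52% of all genes. The median log2 fold change was 0.03 over the members and -0.003 over all genes, and 45 members had a fitted value above 0 and 23 below. Of all genes called 751 were higher and 550 lower, but with upper-quartile scaling factors these were 593 and 663, and with library totals 487 and 548; among the members the split was 6 and 1, 5 and 1, and 1 and 1 under the same scalings.

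**Figure D1:**
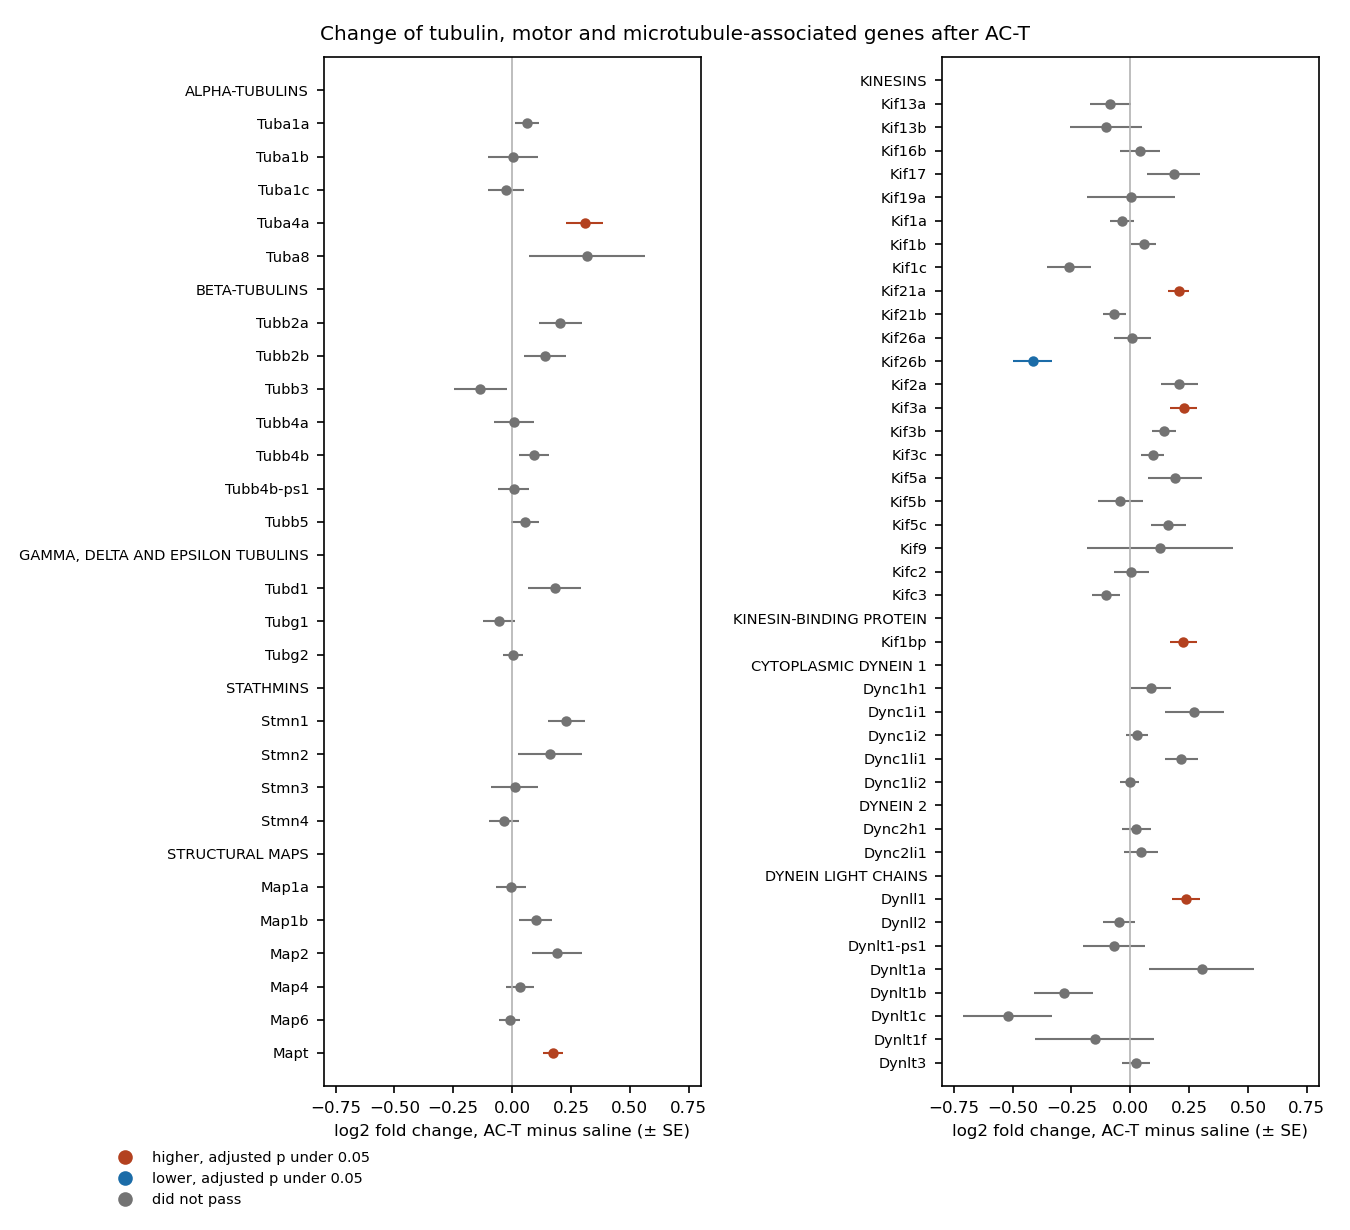
Log2 fold change of AC-T minus saline (x axis) with the SE of the fit for 63 of the 68 members tested, by family; 5 members with an SE above 0.5 (Kif6, Kif7, Kifc5b, Tubb4b-ps2 and Tube1) are not drawn. Red marks the 6 members that rose and blue the 1 that fell. No β-tubulin, stathmin or cytoplasmic dynein 1 subunit is among them, where 8.47% of all genes were called.

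The calls depended on what the model allowed for. With the thalamic marker score as a covariate 0 members passed (10 had an unadjusted p under 0.05), beside 1 of 15353 genes (1185 unadjusted). With mouse-number series as a random effect in limma-voom 0 passed (11 unadjusted), beside 293 of 15353 genes (2738 unadjusted). Calls were thus lost over all genes and not only among the members. With the myelin marker score as a covariate 8 passed, the same 7 and Kif1c, beside 1498 of all genes. The thalamic score does not overlap between the groups, so this covariate and treatment vary together, and the median SE of a member was 0.16 in place of 0.08 on the log2 scale. The 7 fitted changes kept their direction in both models. Kif26b went from -0.42 to -0.27 and Dynll1 from 0.24 to 0.11 with the thalamic covariate, while the fitted changes of the other 5 became larger, up to 0.52 for Tuba4a. With library totals as the scaling only Dynll1 and Kif26b of the 7 passed, and the adjusted p was 0.0538 for Kif21a, 0.0639 for Tuba4a, 0.0725 for Kif1bp, 0.0834 for Kif3a and 0.0979 for Mapt.

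Among the α-tubulins 1 of 5 rose. Tuba4a, encoded like Tuba8 without a terminal tyrosine, stood at 283 to 404 CPM with a median of 346 in the 6 saline libraries. In the AC-T libraries it was at 408 (mouse 501), 461 (502), 430.5 (503), 426 (600) and 442 CPM (602). All 5 lay above every saline library, the lowest of them by a small margin. The means were 350.04 ± 41.2 and 433 ± 19.9 CPM (SD, n = 6 and 5), a log2 change of 0.31 ± 0.08 (SE; adjusted p = 0.0342). The call was lost when any 1 of 7 libraries was left out (saline 203, 301 or 302, AC-T 502, 503, 600 or 602), with an adjusted p of up to 0.0885 without AC-T 502.

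The other α-tubulins did not pass. Tuba1a, the main α-tubulin of neurons, was at 909 ± 55.4 and 949.7 ± 32.2 CPM (log2 0.06 ± 0.05; adjusted p = 0.476). Tuba1b was at 462 ± 68.7 and 463 ± 48.5 CPM, and Tuba1c at 97.9 ± 8.57 and 96.2 ± 9.64 CPM. Their sum, which does not depend on how reads were split among them, changed by 0.04 ± 0.06 on the log2 scale (adjusted p = 0.760). Tuba8, a rare isotype, stood at 6.31 ± 2.29 and 7.85 ± 2.06 CPM (log2 0.32 ± 0.25). Of the summed α-tubulin message per kilobase, Tuba1a made up 53.5 ± 2.07% after saline and 52.9 ± 1.71% after AC-T, and Tuba1b 28.0 ± 1.87% and 26.6 ± 1.53%. The share of Tuba4a was 13.03 ± 0.760% (11.6% to 13.8%) and 15.3 ± 0.742% (14.2% to 16.1%), with no overlap between the groups. Shares within a family are set by the same reads as the levels above and are a description without a test.

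No β-tubulin gene, the family that paclitaxel binds, passed the test, with 0 of 8 called, beside 8.47% of all genes. So few genes cannot show a share below that of all genes. Adjusted p ran from 0.183 to 0.971 in this family. Tubb4a, an isotype abundant in brain and in oligodendrocytes, was the most abundant per kilobase and stood at 714 to 971 CPM (median 813) after saline and at 815, 727, 780.0, 856 and 944 CPM in AC-T mice 501, 502, 503, 600 and 602. The AC-T values lay within the saline range, and the fitted fold change was 1.01 with a 95% interval of 0.881 to 1.15. Tubb2a, a neuronal isotype, stood at 407 to 588 CPM (median 475) after saline and at 511, 653, 542, 546 and 542 CPM after AC-T in the same order. Its ranges overlapped through saline 201, the highest saline library, and the fold change was 1.15 (interval 1.00 to 1.33; adjusted p = 0.183). The sum of Tubb2a and Tubb2b changed by 0.19 ± 0.07 on the log2 scale (adjusted p = 0.131).

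The neuronal class III isotype Tubb3 ran from 213 to 334 CPM (median 257) after saline and was at 230.5, 259, 249.6, 231 and 249 CPM after AC-T. The AC-T libraries were close together inside the wider saline range, and the fold change was 0.911 (interval 0.762 to 1.09; adjusted p = 0.517). Tubb5, the broadly expressed class I isotype, had a fold change of 1.04 (interval 0.945 to 1.14), Tubb4b 1.07 (0.964 to 1.18) and Tubb2b 1.10 (0.958 to 1.27). The intervals of the 6 protein-coding β-tubulin genes thus ran from 0.762 to 1.33, which does not show that their levels were alike. Of the summed β-tubulin message per kilobase Tubb4a made up 30.3 ± 1.70% and 29.3 ± 2.89% after saline and AC-T, Tubb2a 24.8 ± 1.16% and 27.4 ± 2.15%, Tubb3 16.6 ± 1.99% and 14.6 ± 0.502%, Tubb4b 11.8 ± 0.927% and 12.0 ± 0.555%, Tubb5 10.2 ± 0.326% and 10.2 ± 0.360%, and Tubb2b 6.18 ± 0.966% and 6.48 ± 0.918%. Only the share of Tubb2a did not overlap between the groups (22.6% to 25.8% and 26.0% to 31.2%) among these 6. The pseudogene Tubb4b-ps1 was at 17.3 ± 1.58 and 17.4 ± 0.919 CPM; it shares 65.4% of its 31-base words with Tubb4b, and the sum of Tubb4b with its pseudogenes changed by 0.09 ± 0.06 (adjusted p = 0.449).

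**Figure D2:**
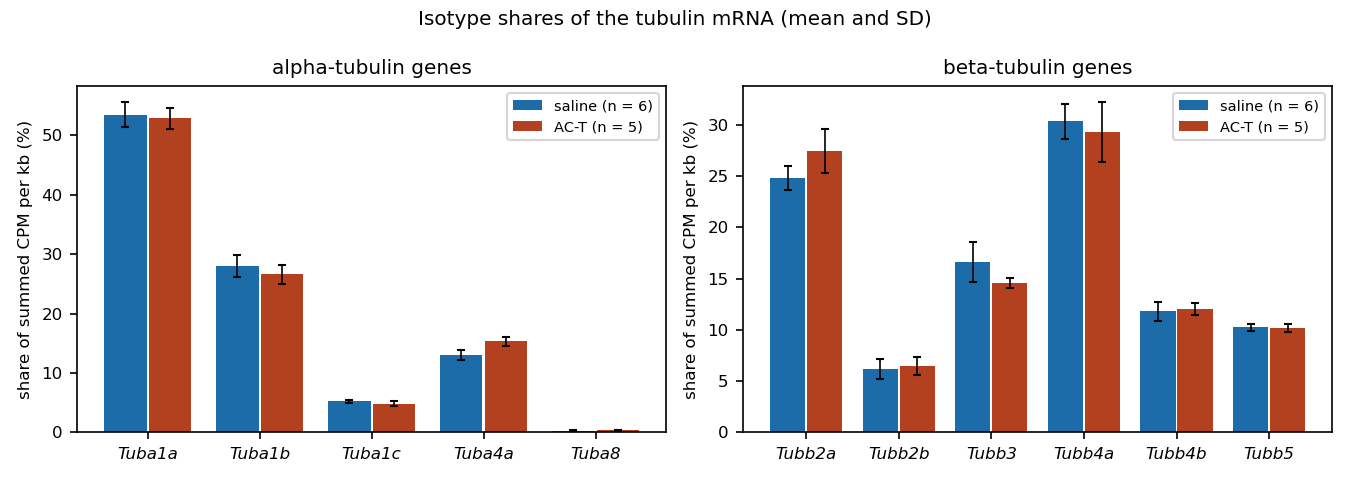
Share of each isotype in the summed α-tubulin (left) and β-tubulin (right) message in percent of CPM per kilobase, as mean bars with SD over 6 saline and 5 AC-T libraries. Tuba1a and Tubb4a are the largest in their families in both groups, and the bars of Tuba4a and Tubb2a are higher after AC-T (15.3% against 13.03% and 27.4% against 24.8%).

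The rarer tubulins did not pass (0 of 4, beside 8.47% of all genes called). Tubg1 and Tubg2, the γ-tubulins that nucleate microtubules, were at 33.2 ± 3.53 and 31.9 ± 0.712 CPM and at 38.01 ± 2.18 and 38.1 ± 0.963 CPM. They share part of their sequence words (22.97% of Tubg1 with Tubg2), and their sum changed by -0.02 ± 0.05 on the log2 scale (adjusted p = 0.831). Tubd1, the δ-tubulin of centrioles, was at 3.98 ± 0.427 and 4.51 ± 0.560 CPM. Tube1, the ε-tubulin, was listed at 0 in saline 301 and AC-T 503 and at 1.90 to 2.89 CPM in the other libraries; no fold change is given.

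Kinesins were the largest family, with 26 members, of which 25 were tested, 2 rose and 1 fell. Per kilobase the neuronal conventional kinesin Kif5a was the most abundant of all 69 members, with 697 ± 106 CPM per kilobase after saline and 796 ± 106 after AC-T, followed by Tuba1a with 504 ± 30.7 and 527 ± 17.9. Those 2 differed by more than their SD with the median transcript length, but with the longest transcript Kif5a was at 570.0 and Tuba1a at 504, within the spread of Kif5a. The next, Tubb4a (368 ± 39.3) and Stmn3 (343 ± 50.1), did not differ beyond their SD. The spread between mice was wide for Kif5a, from 3074 to 4394 CPM after saline (median 3369) and 4322, 3389, 4846, 3835 and 4080.4 CPM after AC-T, and the fold change of 1.14 (interval 0.955 to 1.36; adjusted p = 0.335) did not pass. The other heavy chains of kinesin-1, Kif5b and Kif5c, had fold changes of 0.971 (0.837 to 1.13) and 1.12 (0.996 to 1.26). Kif5b, the broadly expressed one, made up 7.74 ± 0.460% of the summed Kif5 message per kilobase after saline and 6.67 ± 0.275% after AC-T, with no overlap (7.32% to 8.49% and 6.45% to 7.11%), while Kif5a held 78.9 ± 0.809% and 80.0 ± 1.29%.

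In the kinesin-2 family 1 of 4 rose, and all 4 fitted values were above 0. Kif3a, a motor subunit that pairs with Kif3b or Kif3c and carries cargo in axons and cilia, was at 72.9 to 88.9 CPM (median 82.7) after saline. After AC-T it was at 89.9, 102, 90.0, 94.2 and 104 CPM in mice 501, 502, 503, 600 and 602. The groups did not overlap, although the highest saline and the lowest AC-T library were close. The log2 change was 0.23 ± 0.06 (adjusted p = 0.0343), and the call was lost without any 1 of saline 202, 300, 301 or 302 or AC-T 502, 600 or 602, with an adjusted p of up to 0.0887 without AC-T 502. Its partners Kif3b (72.3 ± 1.97 and 79.8 ± 6.40 CPM; log2 0.14 ± 0.05, adjusted p = 0.104) and Kif3c (207 ± 11.4 and 222 ± 10.7 CPM; 0.10 ± 0.05, 0.252) did not pass. Kifap3, the accessory protein that completes the kinesin-2 trimer and comes from the list of kinesin cargo adaptors, rose 1.23-fold from 201 ± 22.5 to 247 ± 19.7 CPM (adjusted p = 0.0420), and lost its call without any 1 of 9 libraries (all but saline 201 and AC-T 501; up to 0.108 without AC-T 502). Kif17, which walks as a homodimer in dendrites, was at 18.5 ± 2.00 and 21.004 ± 3.52 CPM.

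Kif21a of the kinesin-4 family, a motor that curbs microtubule growth at the cell cortex, rose. It was at 146 to 165 CPM (median 153) after saline and at 168, 186, 172, 176 and 187 CPM after AC-T. Every AC-T library was above every saline library, and the log2 change was 0.21 ± 0.04 (adjusted p = 0.0176). This call held when each of the 11 libraries was left out in turn, with an adjusted p of at most 0.0478 (without AC-T 502), and none of its 31-base words is shared with another gene. Kif21b, its paralogue, was at 73.5 ± 3.74 and 70.1 ± 4.08 CPM and did not pass (log2 -0.07 ± 0.05).

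Kif26b fell. It is an atypical kinesin of the kinesin-11 family that binds microtubules without the usual motor activity. It stood at 24.9 to 29.9 CPM (median 26.9) after saline and at 22.4, 21.2, 16.1, 20.02 and 21.4 CPM after AC-T. The groups did not overlap, and AC-T 503 was the lowest. Its log2 change of -0.42 ± 0.08 (adjusted p = 0.0141) was the largest among the called members, and it held when each library was left out in turn, up to an adjusted p of 0.0346 without AC-T 600. The thalamic marker sum was lower in the AC-T libraries too, without overlap, and when its score entered the model the change of Kif26b was -0.27 ± 0.18 (adjusted p = 0.725). Its paralogue Kif26a was at 9.04 ± 0.520 and 9.09 ± 1.08 CPM.

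The kinesin-3 motors, which carry vesicles along axons and dendrites, were not called (0 of 6, beside 8.47% of all genes). Kif1a, the carrier of synaptic vesicle precursors, was at 1123 ± 33.9 and 1096 ± 77.9 CPM (fold change 0.975, interval 0.900 to 1.06), and Kif1b at 736 ± 43.6 and 765 ± 34.2 CPM. Kif1c was at 212 ± 24.9 and 177 ± 19.7 CPM (log2 -0.26 ± 0.09, adjusted p = 0.106). With the myelin marker score as covariate its adjusted p was 0.0300 and in DESeq2 0.0324. It was 0.644 with the thalamic covariate and up to 0.224 without 1 library (AC-T 502). Kif2a, a kinesin-13 that takes microtubules apart at their ends, was at 61.8 ± 6.39 and 71.4 ± 6.46 CPM (log2 0.21 ± 0.08, adjusted p = 0.119). Without 1 library its adjusted p ran from 0.0384 (without saline 201) to 0.272 (without AC-T 502). Kifc2 and Kifc3, minus-end kinesins of the kinesin-14 family, had fold changes of 1.00 and 0.931.

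Kif1bp, the kinesin-binding protein, rose from 152 ± 9.96 to 178 ± 12.6 CPM. Its saline libraries ran from 138 to 166 CPM (median 153), and the AC-T libraries were at 169, 198, 166, 175 and 180.3 CPM. The lowest AC-T library (mouse 503) was above the highest saline library (mouse 201) by a fraction of 1 CPM. The log2 change was 0.23 ± 0.06 (adjusted p = 0.0363), and the call was lost without any 1 of saline 202, 203, 300 or 301 or AC-T 502, 600 or 602 (up to 0.0856 without AC-T 502).

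**Figure D3:**
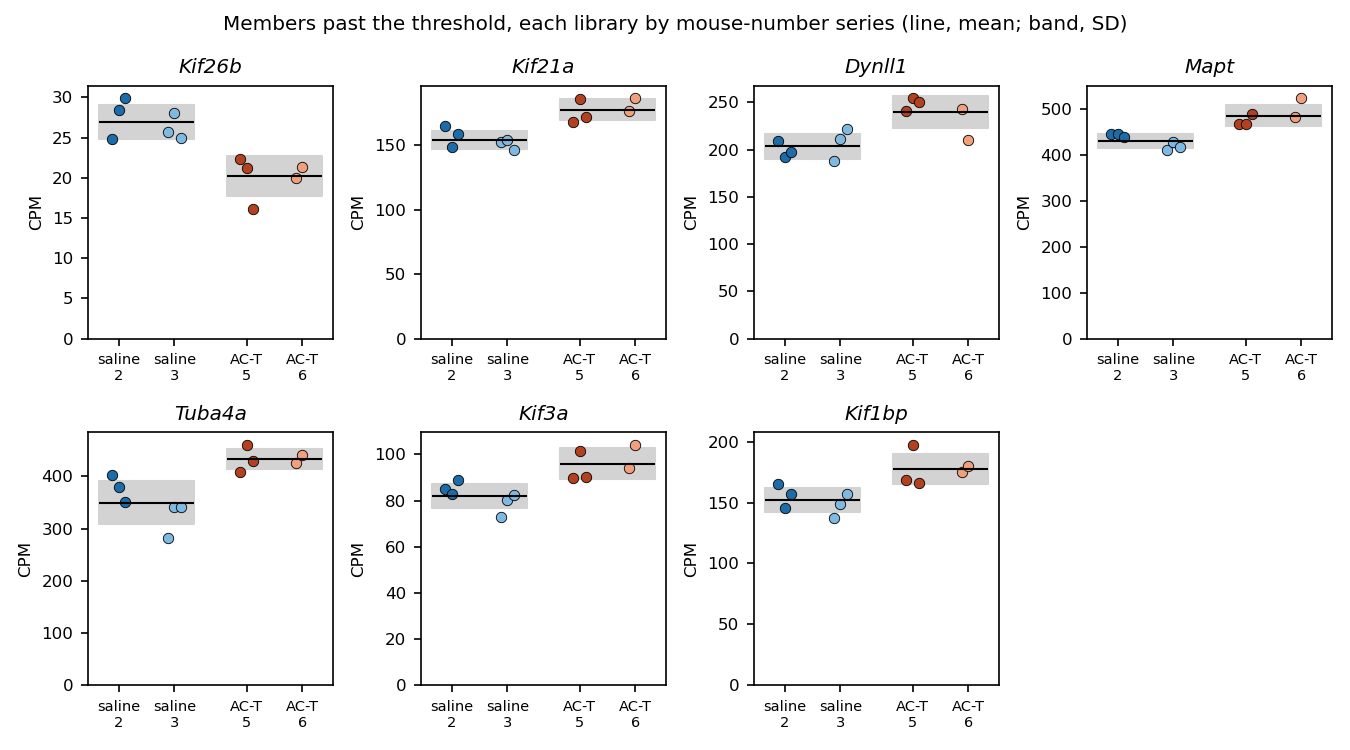
CPM (y axis, from 0) of the 7 members past the threshold in each library, by mouse-number series (x axis; saline series 2 and 3, AC-T series 5 and 6); lines are group means and grey bands SD over 6 saline and 5 AC-T libraries. Groups are apart for all but Dynll1, whose AC-T 602 point (210.3 CPM) lies below the highest saline point (222 CPM).

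No subunit of the cytoplasmic dynein 1 motor was called (0 of 5, beside 8.47% of all genes). Its heavy chain Dync1h1, which holds the motor, was at 332 ± 44.8 and 353 ± 17.4 CPM (fold change 1.06, interval 0.932 to 1.21). The light intermediate chain Dync1li1, which links the motor to cargo adaptors, was at 60.7 ± 6.00 and 70.5 ± 5.30 CPM (log2 0.22 ± 0.07; adjusted p = 0.0834). Without saline 201, its highest saline library with 72.1 CPM, the adjusted p was 0.0196, and without AC-T 502 it was 0.194. The adjusted p of Dync1li1 was 0.0264 in DESeq2, 0.0461 without saline series 2 and 0.644 with the thalamic covariate. The neuronal intermediate chain Dync1i1 was at 100.1 ± 16.6 and 121 ± 17.9 CPM (log2 0.27 ± 0.13; adjusted p = 0.205) and Dync1i2, the broadly expressed one, at 117 ± 6.38 and 119.7 ± 5.12 CPM. Dynein 2, the motor of intraflagellar transport in cilia, was not called either (0 of 2), with Dync2h1 at 26.1 ± 2.06 and 26.6 ± 1.66 CPM.

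Of 8 dynein light chain genes 1 rose. Dynll1, the LC8 light chain that also pairs many proteins outside the motor, was at 188 to 222 CPM (median 203) after saline and at 241, 255, 250.0, 243 and 210.3 CPM after AC-T. AC-T 501, 502, 503 and 600 were above all saline libraries, and AC-T 602 lay within their range. The log2 change was 0.24 ± 0.06 (adjusted p = 0.0320), and the call was lost without any 1 of saline 202, 203 or 300 or AC-T 501, 502, 503 or 600 (up to 0.0841 without AC-T 502). Dynll2, the more abundant LC8 chain in these libraries (253 ± 22.3 CPM per kilobase against 147 ± 9.42 for Dynll1 after saline), had a fold change of 0.967 (interval 0.868 to 1.08). The Dynlt1 genes are near-identical copies, with 67.6% to 100% of their 31-base words shared, so their split is uncertain. Dynlt1b (3.84 ± 0.519 and 3.16 ± 0.274 CPM) and Dynlt1c (5.58 ± 1.61 and 3.89 ± 0.545 CPM) had fitted values below 0 and Dynlt1a above 0 (0.30 ± 0.22). For Dynlt1c the adjusted p was 0.111, with 0.0403 in DESeq2 and 0.211 without AC-T 502. The sum of Dynlt1a, Dynlt1b and Dynlt1c with Dynlt1f and the pseudogene changed by -0.20 ± 0.10 on the log2 scale (adjusted p = 0.261).

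None of the 4 stathmins passed, where 8.47% of all genes did. Stmn1, the form found also in dividing cells, was at 154 ± 17.7 and 181 ± 12.6 CPM (log2 0.23 ± 0.08, adjusted p = 0.0930). Without 1 library its adjusted p ran from 0.04998 (without saline 203) to 0.177 (without saline 300). The adjusted p of Stmn1 was 0.0397 in DESeq2, 0.0266 without saline series 2 and 0.642 with the thalamic covariate. Of its 31-base words 42.6% occur in other genes. Stmn2, a neuronal stathmin of growing and injured axons, was at 271 ± 49.6 and 302 ± 47.9 CPM, Stmn3 at 390.1 ± 56.9 and 393 ± 36.9 CPM and Stmn4 at 201 ± 15.04 and 196 ± 14.9 CPM. Their fold changes were 1.12 (interval 0.904 to 1.38), 1.01 (0.860 to 1.18) and 0.977 (0.885 to 1.08).

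Of 6 structural MAPs 1 rose. Mapt, which encodes tau, the axonal MAP, was at 410.3 to 445 CPM (median 433) after saline. In AC-T mice 501, 502, 503, 600 and 602 it was at 467, 467, 489, 482 and 524 CPM. The groups did not overlap, and the spread between mice was small, with a coefficient of variation of 3.42% after saline and 4.82% after AC-T. The log2 change was 0.17 ± 0.04 (adjusted p = 0.0321), lost without any 1 of saline 203, 300, 301 or 302 or AC-T 503, 600 or 602 (up to 0.0742 without AC-T 602) and with upper-quartile factors (0.0530). Map2, the dendritic MAP, was at 788 ± 79.2 and 899 ± 146 CPM (log2 0.19 ± 0.11; adjusted p = 0.299). Map1a and Map1b, large neuronal MAPs, had fold changes of 0.996 (interval 0.903 to 1.10) and 1.07 (0.958 to 1.20), Map4 1.02 (0.933 to 1.12) and Map6, which protects stable microtubules from cold, 0.993 (0.925 to 1.06).

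Between saline series 3 and saline series 2, 1 of 68 members was called, Tubb3 (log2 -0.46 ± 0.08, adjusted p = 0.0351), beside 1.03% of all genes called. An unadjusted p under 0.05 was reached by 23 members, and the share of all genes at that level is not given here. Tubb3 averaged 310.4 CPM in series 2 and 225 CPM in series 3, and 246 and 240.1 CPM in AC-T series 5 and 6. The next members by adjusted p were Tuba1b (523 and 401 CPM; 0.0595), Tubg1 (36.1 and 30.3 CPM; 0.0616) and Stmn3 (438 and 342 CPM; 0.0621), all with the lower mean in series 3. In the other direction Kif13b averaged 29.6 CPM in series 2 and 40.9 CPM in series 3 (0.0791). The thalamic marker sum ran from 2090 to 2422 CPM in saline series 2 and from 1618 to 1724 CPM in series 3, and the myelin sum from 11341 to 13126 and from 14008 to 16029 CPM; their part in these differences was not tested. AC-T series 6 and 5 differed in 0 of 68 members, beside 0.117% of all genes, both at an adjusted p under 0.05. Of the members 11 had an unadjusted p under 0.05, and the share of all genes at that level is not given here either.

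The choice of saline series changed which members were called. Against saline series 2 AC-T differed in 6 members, beside 11.4% of all genes: Dynll1, Kif21a and Kif5c were higher and Kif26b, Tubb3 and Tubg1 lower. Against saline series 3 it differed in 7, beside 7.25%: Dync1li1, Kif21a, Kif3a, Mapt, Stmn1 and Tuba4a were higher and Kif1c lower. These contrasts share the AC-T libraries, and Kif21a was the single member called in both (log2 0.18 ± 0.05, adjusted p = 0.049997, and 0.24 ± 0.05, adjusted p = 0.0301). Tubb3 had a log2 value of -0.35 ± 0.07 (adjusted p = 0.0114) against series 2 and 0.11 ± 0.07 (adjusted p = 0.336) against series 3. Tuba4a had 0.20 ± 0.08 (adjusted p = 0.132) and 0.43 ± 0.08 (adjusted p = 0.0198), and Kif5c 0.27 ± 0.07 (adjusted p = 0.0315) and 0.05 ± 0.07 (adjusted p = 0.723). Kif26b stood below both saline series, at -0.45 ± 0.10 (adjusted p = 0.0242) and -0.37 ± 0.10 (adjusted p = 0.0618).

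**Figure D4:**
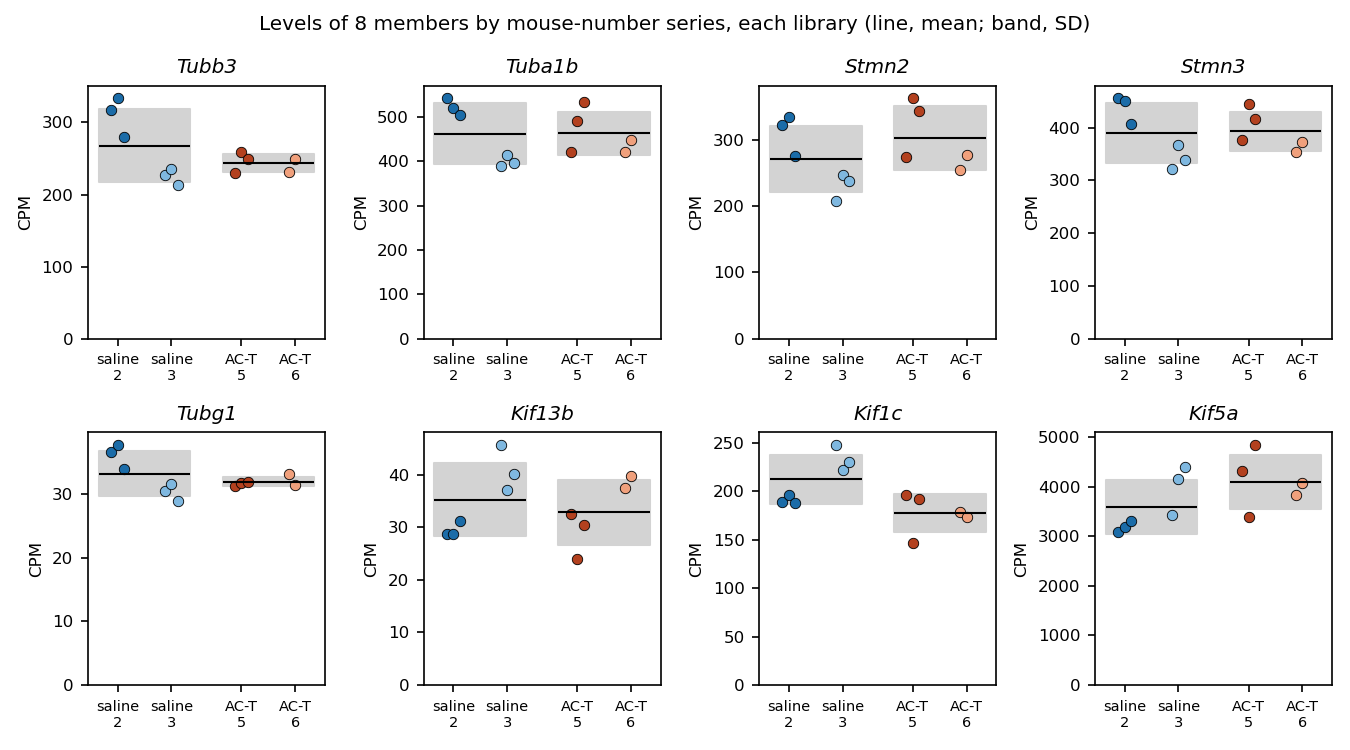
CPM (y axis, from 0) of 8 members in each library, by mouse-number series (x axis), with group means as lines and SD as grey bands over 6 saline and 5 AC-T libraries. Mean levels of Tubb3, Tuba1b, Stmn2, Stmn3 and Tubg1 are higher in saline series 2 than in series 3, and Kif13b, Kif1c and Kif5a the other way round. For Tubb3 the means are 310.4 and 225 CPM. Of this selection only Tubb3 was called between the saline series.

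Other genes of the microtubule system came from 8 lists with no member in them. Of 149 tested 15 rose and 4 fell (12.8%, beside 8.47% of all genes, with 4.89% higher and 3.58% lower), with a median log2 fold change of 0.05, beside -0.003 over all genes. The list of other microtubule-binding proteins had 5 of 28 higher. Dclk1, a doublecortin-like kinase that binds and bundles microtubules, rose from 417 ± 38.3 to 600.1 ± 27.8 CPM (log2 0.53 ± 0.07; adjusted p = 0.00192), without overlap, and held without each library in turn (up to 0.00806 without AC-T 602) and with series as a random effect (0.0141). Tppp, a promoter of tubulin polymerisation found in oligodendrocytes, rose from 550.4 ± 40.0 to 672 ± 20.6 CPM (log2 0.29 ± 0.05; adjusted p = 0.0118; 0.0476 with series as a random effect). With the thalamic covariate the values of Dclk1 and Tppp were 0.41 ± 0.14 and 0.15 ± 0.11, and neither passed (adjusted p = 0.642 and 0.760).

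Among tubulin-modifying enzymes 2 rose and 1 fell of 20 tested. Vash2, which with a partner protein removes the terminal tyrosine of α-tubulin, was at 7.21 ± 2.39 CPM after saline and 3.91 ± 0.278 CPM after AC-T. It fell to 0.543 times its saline value (adjusted p = 0.0255), a call lost without any 1 of saline 202 or AC-T 502, 600 or 602 (up to 0.0633 without AC-T 502). With the thalamic covariate its fitted value turned to 0.20 ± 0.32. Ttl, the ligase that puts tyrosine back, rose 1.13-fold from 51.1 ± 2.15 to 57.5 ± 3.43 CPM (adjusted p = 0.0443), and Ttll11, a glutamate-adding enzyme, rose 1.16-fold (adjusted p = 0.0344; lost without any 1 of 8 libraries, all but saline 201 and 302 and AC-T 503, up to 0.0863 without AC-T 502).

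Plus-end tracking proteins had 3 of 17 higher, among them Clip2 (1.13-fold, adjusted p = 0.0122; held without each library in turn, but 0.0632 with series as a random effect and 0.642 with the thalamic covariate) and Ckap5, a microtubule polymerase (1.11-fold, 0.0255; lost without saline 202 or 301 or AC-T 502 or 602, up to 0.0645). Among nucleation and minus-end proteins Tubgcp6, a subunit of the γ-tubulin ring complex, fell to 0.874 times its saline value (adjusted p = 0.0163; held without each library in turn, but 0.0835 with series as a random effect and 0.681 with the thalamic covariate). Camsap1, which caps minus ends, rose 1.11-fold (0.0321; lost without any 1 of 7 libraries, all but saline 201 and 301 and AC-T 501 and 503, up to 0.0781 without saline 300). Of dynein cofactors 1 of 22 rose and 1 fell: Ndel1 (1.12-fold, 0.0403) and Ccdc64, also named Bicdl1 (0.878 of saline, 0.0320), each lost without any 1 of 9 libraries (all but saline 203 and AC-T 501 for Ndel1, and all but saline 201 and AC-T 503 for Ccdc64), up to 0.0983 and 0.0813 without AC-T 502. Katna1, a severing enzyme, fell (0.850 of saline, 0.0484) and Tcp1, a subunit of the chaperonin that folds tubulin, rose (1.10-fold, 0.0487), each lost without any 1 of 10 libraries (all but saline 201; up to 0.0995 without AC-T 602 and 0.109 without AC-T 502). Ttll11, Vash2, Ckap5, Camsap1, Ndel1, Ccdc64, Katna1, Tcp1 and Kifap3 did not pass in either of those models. The remaining called genes, Clip1, Camsap2, Jakmip1, Jakmip2 and Map9, rose; these and Ttl were named after their values were seen.

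**Figure D5:**
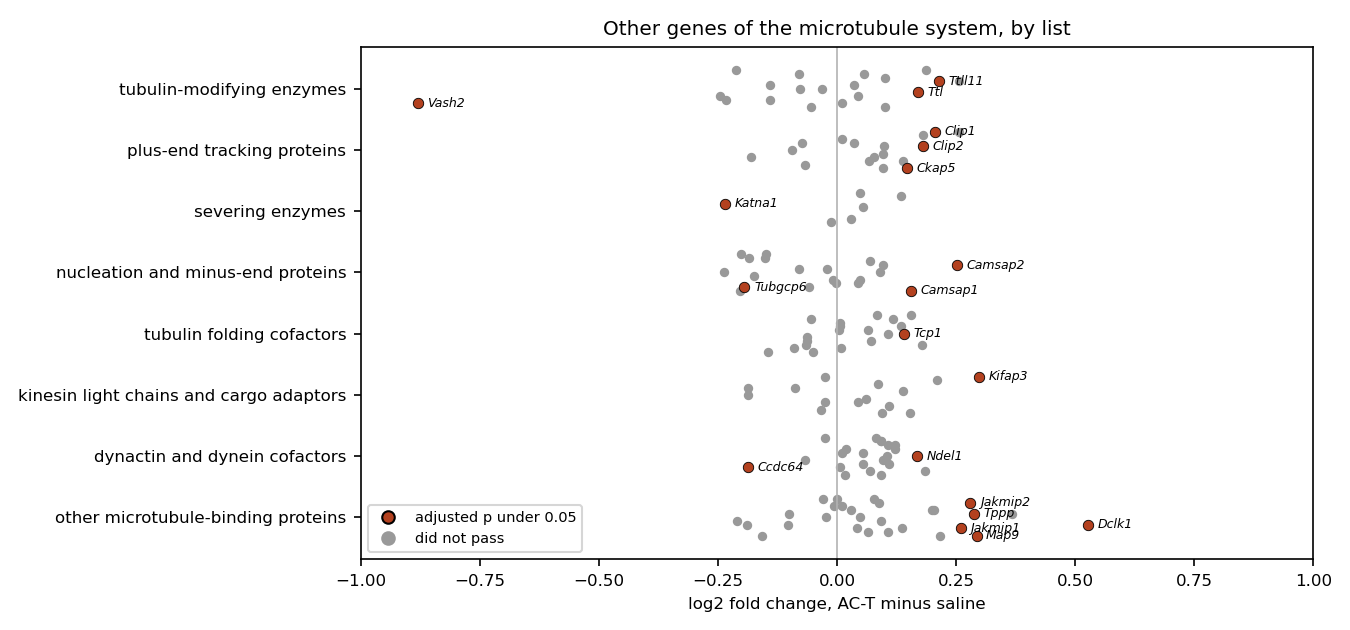
Log2 fold change of AC-T minus saline (x axis) of 148 of 149 genes in 8 lists of other microtubule genes, 1 point a gene with vertical offsets for legibility; red points passed the threshold and carry names. Dclk1 lies farthest to the right of the called genes (0.53) and Vash2 farthest to the left (-0.88); Fignl2 lies beyond the axis.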

How the data were processed

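The table deposited by the authors holds expected counts per gene, whose totals differ between libraries; per the submitters' processing notes reads were quantified with Salmon 1.9.0 against mouse build GRCm39. The step that wrote the table and its annotation release are not given in the sources used here. Values were rounded to whole numbers. Salmon divides reads shared by similar genes, and 17 members had fractional values. A listed 0 was read as a value under a limit.

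Differential expression was tested on all genes by the quasi-likelihood test of edgeR 4.0.16 under R 4.3.3 (TMM factors; low counts removed by filterByExpr at its minimum of 10; p-values 2-sided and Benjamini-Hochberg adjusted over 15353 genes, with a threshold of 0.05). The scripts were tested on simulated data. Fold changes are given with the SE of the fit or a 95% interval; intervals and p-values reflect spread between mice. Series were compared in a model with 4 group means. Transcript lengths (median per gene), coding ends and shared words of 31 bases came from GENCODE M21; its build differs from that of the table, so no gene coordinates are given. The coding ends of some genes are not reported here. Alternatives were other scalings, filters, tests (DESeq2 1.42.0, limma 3.58.1), covariates, thresholds, and omission of each library or series. Sums over near-identical genes were added after seeing the data.

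Members and lists were chosen with earlier results of these data known. Genes named are those past the threshold, up to 2 per family or list with the smallest p, and a preset list of tubulins, motors, stathmins and MAPs. One preset name, Kif11, was not analysed here. The series text states 6 samples per treatment; 5 AC-T libraries were analysed here.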

Additional observations from a re-analysis of the deposited data

Results flagged for a closer look

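A level was picked out where the highest or lowest library of a group lay far from the others relative to the range of the group (Dixon's criterion). Of 106 checks (53 members in 2 groups) 10 did so. For a single check chance alone picks out about 1 in 20. The members were measured in the same libraries, so the checks are not independent and their count cannot be set against that rate.

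Saline 201, which had the fewest counts, stood apart in 5 of them: Dync1li1 at 72.1 CPM (others 55.0 to 60.6), Stmn4 at 231 CPM (189 to 199), Kif21b at 66.5 CPM (73.8 to 77.7) and, both listed at 0, Kifc5b (others 1.91 to 2.28) and Tubb4b-ps2 (0.933 to 1.31). In the AC-T group, mouse 502 was high for Tubb2a, at 653 CPM against 511 to 546 in the others, and for Tubb4b-ps2, at 1.18 CPM against 1.00 to 1.05. Mouse 600 was low for Kif1b, at 704 CPM against 778 to 783. Mouse 602 was high for Dync1h1, at 384 CPM against 344 to 348, and had Kifc5b listed at 0 (1.77 to 2.11 in the others). None of these genes passed the test between the treatments. For Dync1li1 the adjusted p was 0.0196 without saline 201 and 0.194 without AC-T 502.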

How the results depend on the processing

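Of 68 members 7 passed; the count was 2 with library totals as scaling, 11 in DESeq2, 2 to 9 when 1 library was left out, 4 without saline series 2, 4 without saline series 3, 1 without AC-T series 6, and 0 without AC-T series 5 (edgeR; 12 with an unadjusted p under 0.05), with the thalamic covariate, with series as a random effect, or at an adjusted p under 0.01 (15 unadjusted). Over all genes 1301 passed, and the count was 2578 in DESeq2, 293 with series as a random effect, 1 with the thalamic covariate, 625 to 1229 with 1 library left out, 549 without saline series 2, 317 without AC-T series 5, 409 without AC-T series 6, 228 at an adjusted p under 0.01 and 2295 under 0.10. With library totals 1035 of all genes passed, and without saline series 3 1206 did. Without AC-T series 5 an unadjusted p under 0.05 was reached by 3138 of 15909 genes. The cause of these shifts was not tested, beyond fewer libraries where some were left out. Across 53 named members and 28 alternatives 1388 of 1480 results kept their side of the threshold, 79 lost a call, 13 gained one and 0 called genes changed sign; 127 sign changes fell in 31 genes that were not called. Vash2 turned from -0.88 to 0.20 with the thalamic covariate. The log2 ratio of summed levels (AC-T over saline) moved by less than 1 SD in each family under the alternatives run for it (library totals, longest transcripts, 1 library left out); levels per kilobase depend on the transcript length used. No paired analysis was possible because the mouse numbers differ between the treatments. Members at 1 to 5 CPM have wide intervals, and values listed at 0 limit Kif7, Kif27, Kif6, Tube1, Kifc5b and Tubb4b-ps2.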

Other observations

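The genes and libraries described here were chosen after their values were seen. Kif9, a kinesin of motile cilia, had a coefficient of variation of 43.7% after saline and 40.05% after AC-T, beside 15.2% and 13.3% for Kif5a. Kif9 was at 8.92 CPM in saline 300 and at 2.95 to 6.08 CPM in the other saline libraries, and at 8.73 and 6.60 CPM in AC-T 600 and 602 against 3.44 to 4.26 CPM in the remaining AC-T libraries. Kif19a, which sets the length of cilia, was likewise highest in saline 300 (5.69 CPM) and in AC-T 600 (4.51 CPM). Kif27 was listed above 0 in saline 300 (4.68 CPM), AC-T 502 (2.98 CPM), AC-T 600 (4.41 CPM) and AC-T 602 (3.82 CPM) and at 0 in the other 7. A list of axonemal dyneins and other motile cilia genes summed to 129 CPM in saline 300, 106 CPM in AC-T 600 and 85.6 CPM in AC-T 602, and to 27.5 to 79.9 CPM elsewhere. Choroid plexus markers summed to 5616 CPM in saline 300, 5495 CPM in AC-T 600 and 22.7 CPM in saline 203. The sums were 2966 CPM in saline 302, where Kif27 was listed at 0, and 2281 CPM in AC-T 602. AC-T 502 and 503 had 1347 and 1386 CPM, and the remaining libraries 81.7 to 1228 CPM. The part of ventricular tissue in these values was not tested.

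AC-T 502 had the lowest myelin marker sum of the 11 libraries (8949 CPM, others 11341 to 16029 CPM). It also had the lowest thalamic sum (878 CPM) and the highest sums of CA1 (737 CPM) and general neuronal markers (8006 CPM). The part of these marker differences in the levels below was not tested. The same library had the lowest level of Kif1c (146 CPM), Kif13b (23.9 CPM) and Kif13a (38.7 CPM) and the highest of Tuba4a (461 CPM), Tubb2a (653 CPM), Dync1i1 (148 CPM) and Kif1bp (198 CPM). Leaving it out gave the highest adjusted p for Tuba4a, Dynll1, Kif3a, Kif1bp and Kif21a among the fits without 1 library, and the fold changes of these 5 kept their sign. Over all genes it also left the fewest calls of these fits, 625 beside 1301 with every library, so the loss was not particular to the members.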
